A study of Mus musculus with 3 samples.

Results

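CD4 T cells that have not met antigen are held at rest by a set of transcription factors and surface receptors, and 9 genes of that programme, Ccr7, Tcf7, Lef1, Klf2, S1pr1, Il7r, Foxo1, Foxp1 and Bach2, were followed here across 3 culture media. The genes were chosen by name, with earlier results of these data known. Each of the 9 matched 1 of the 23282 gene rows, and all 9 passed the filter on low values that left 12770 rows to be tested. The cells came from the spleen and lymph nodes of C57BL/6 mice (C57BL/6 J in the study's methods), which the study took as females of 6 to 8 weeks unless stated otherwise. All groups received anti-CD3 and anti-CD28 antibody at 2 µg/ml, which stimulates the T cell receptor and the costimulatory receptor CD28, and all were harvested after 72 h. Complete medium (CM) was RPMI with 10% fetal bovine serum. Dialyzed medium (DM) was RPMI without amino acids with serum passed through a 3.5 kD dialysis membrane, and DM+Met was DM with 30 µM methionine. The study also measured methionine in DM and found it present, so DM was not free of it. Each medium had 2 libraries, which the study calls biologically independent samples. The labels do not say whether they came from separate animals or cultures, so the p-values measure only the spread between these libraries.

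FOXO1 is a forkhead transcription factor that is kept out of the nucleus while the PI3K and AKT kinases are active, and in resting T cells it drives Klf2, Ccr7 and Il7r. KLF2 in turn drives S1pr1, whose product lets T cells leave lymphoid tissue towards sphingosine-1-phosphate in blood. TCF-1 (the product of Tcf7) and LEF-1 are HMG-box factors that share a binding sequence. FOXP1 and BACH2 restrain activation and effector genes. After activation through the T cell receptor most of these transcripts fall, and they recover as cells return to rest.

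Promoter sequences are shown for 4 of the genes, Klf2, Lef1 and Tcf7, which were higher in DM, and Foxo1, which did not pass the test. They are from RefSeq (GRCm38.p6), which held windows of 250 bases before to 50 bases after a start site for 7 of the 9 genes. Only bases outside annotated exons of the gene are printed, on the strand of the gene. Capitals mark a match to 1 of 4 motifs searched on both strands, GTAAACA (forkhead), CTTTGAT (TCF and LEF), CCACACCC (KLF) and TGAGTCA (AP-1 and BACH). The first 3 stretches lie before the start of their gene in the GENCODE annotation, and that of Tcf7 lies in an intron, before a second start site.
Klf2 (chr8:72318812-72319032, plus strand): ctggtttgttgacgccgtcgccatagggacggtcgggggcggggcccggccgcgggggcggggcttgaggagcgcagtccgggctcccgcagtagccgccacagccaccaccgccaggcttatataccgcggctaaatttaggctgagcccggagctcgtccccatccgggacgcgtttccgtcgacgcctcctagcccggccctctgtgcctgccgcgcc
Lef1 (chr3:131110047-131110296, plus strand): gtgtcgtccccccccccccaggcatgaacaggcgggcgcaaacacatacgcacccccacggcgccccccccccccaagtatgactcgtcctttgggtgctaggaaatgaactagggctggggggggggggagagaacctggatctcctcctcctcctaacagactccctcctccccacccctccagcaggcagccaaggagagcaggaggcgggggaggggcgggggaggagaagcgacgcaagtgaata
Foxo1 (chr3:52268087-52268335, plus strand): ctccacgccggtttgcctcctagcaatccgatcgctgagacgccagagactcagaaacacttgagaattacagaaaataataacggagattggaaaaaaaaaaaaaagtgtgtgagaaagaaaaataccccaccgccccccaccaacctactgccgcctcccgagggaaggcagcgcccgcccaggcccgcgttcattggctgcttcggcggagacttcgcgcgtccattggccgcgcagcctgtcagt
Tcf7 (chr11:52282625-52282694, minus strand): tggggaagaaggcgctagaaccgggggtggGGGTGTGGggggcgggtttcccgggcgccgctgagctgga

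Among the 13 windows of the 7 genes, only that of the second Tcf7 start site held any of the motifs. It held the KLF motif in reverse, GGGTGTGG, which begins 69 bases before the start site and is the run in capitals, and the forkhead motif just after the start site, which is not printed. Of all 32851 promoter windows, 3.65% held the forkhead motif, 3.73% the TCF and LEF motif, 3.56% the KLF motif and 5.20% the AP-1 and BACH motif. The stretch of Klf2 was 71.5% G and C, that of Lef1 66.4% and that of Foxo1 55.8%. A match is a run of letters and not a bound site, and the windows leave out distant elements.

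Levels are given as log2(CPM + 1), where CPM is the reads of a gene set on a common library size that was scaled by the TMM method, and differences are on the same log2 scale. Depth was 8504742 to 12377285 reads per library. A floor of 3 reads, the number a count of 0 still allows, was a log2 level of 0.323 to 0.469, and every value of the 9 genes lay well above it, the lowest being 123 reads of Tcf7. The 45S ribosomal precursor row, Rn45s, took 31.0% to 38.3% of reads in CM and DM, and 15.5% and 20.1% in DM+Met. The CM libraries correlated at r = 0.847 to 0.889 across genes with those of the other media. DM library 1 correlated at r = 0.919 with DM library 2 and at 0.925 and 0.921 with the DM+Met libraries. DM library 2 was closer to the DM+Met libraries (r = 0.947 and 0.940). The T cell markers were read in every library, with Cd4 at 7.35 to 8.13 and Cd3e at 6.48 to 7.53.

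Between DM and CM, 8 of the 9 genes differed. Ccr7, Tcf7, Lef1, Klf2, S1pr1, Foxp1 and Bach2 were higher in DM, Il7r was lower, and Foxo1 was not called in either direction. The 7 higher genes compare with 7.80% of all tested genes called higher, and the 1 lower gene with 9.07% called lower (limma, adjusted p below 0.05). The set was chosen with earlier results of these data known, so these shares are a description and not an independent test. The median change of the 9 genes was 1.22, against 0.07 for all tested genes. Their summed level was 1440 and 1372 CPM in the CM libraries, 3114 and 2851 in those of DM, and 2735 and 2755 in those of DM+Met. Of the 9 genes, 7 had both DM libraries above both CM libraries and 1 had both below, against 27.9% and 26.2% of all tested genes. The number called was 7 without DM library 1, 5 without DM library 2, 5 without CM library 1, 4 without CM library 2 and 6 without either DM+Met library, and Il7r was not called in any of these. In bulk RNA, fewer cells with a transcript and less of it per cell cannot be told apart.

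**Figure D1:**
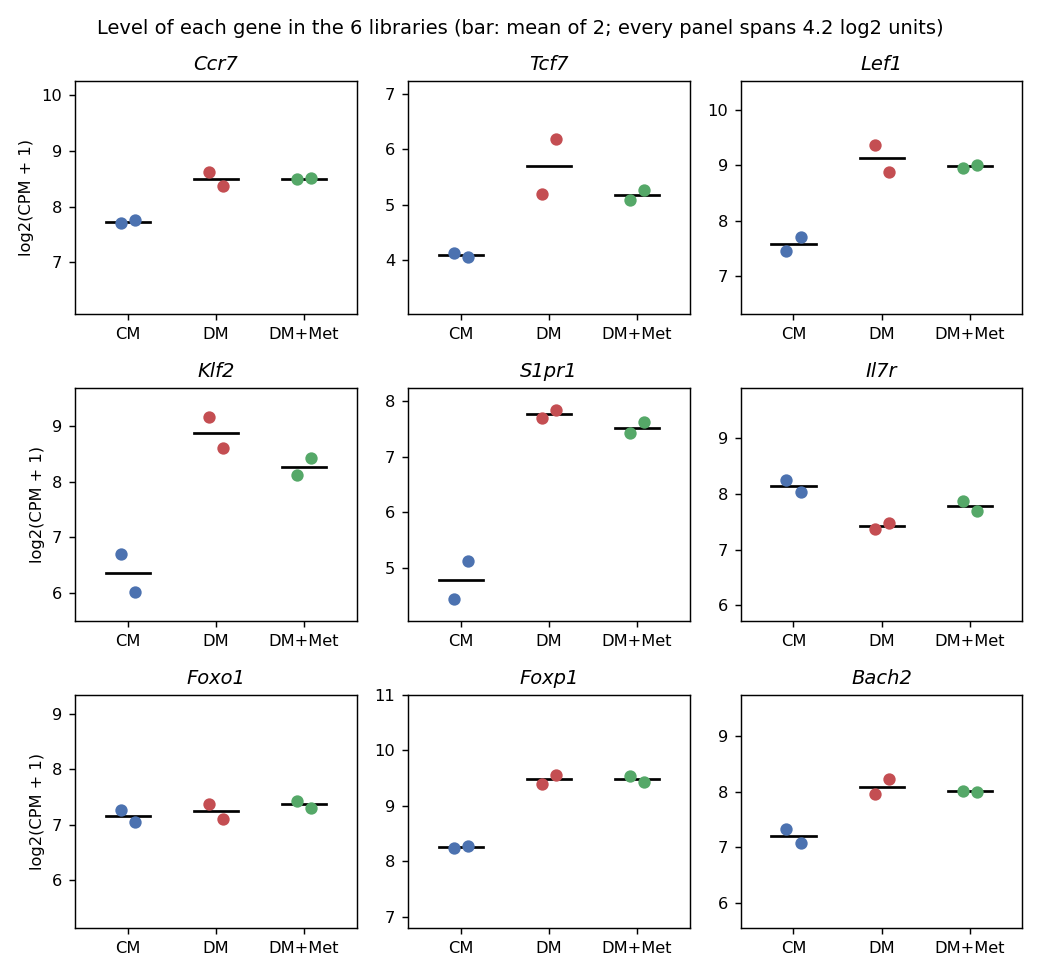
Level of each gene, log2(CPM + 1) on the vertical axis, in the 2 libraries (points) of CM, DM and DM+Met, with the mean of each medium as a bar. Every panel spans the same range, and S1pr1 lies at 4.43 and 5.12 in CM and at 7.42 to 7.84 in the other 4 libraries, while Foxo1 stays between 7.06 and 7.43.

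The widest differences were in Klf2 and S1pr1. Klf2 (chr8:72319033-72321656, ENSMUSG00000055148.7) had log2 levels of 6.69 and 6.02 in the CM libraries, 9.16 and 8.61 in those of DM, and 8.12 and 8.42 in those of DM+Met. The DM libraries were the highest, the DM+Met libraries came next and the CM libraries lowest, with no overlap between media. Klf2 rose by 2.53 in DM (SE 0.25, adjusted p 3.88e-04 in limma), a 5.77-fold change of CPM + 1. It was higher in DM+Met than in CM by 1.91 (SE 0.25, adjusted p 0.00113).

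S1pr1 (chr3:115710433-115715072), the receptor for sphingosine-1-phosphate, had 4.43 and 5.12 in the CM libraries, 7.69 and 7.84 in those of DM, and 7.42 and 7.62 in those of DM+Met. The CM libraries held 181 and 264 reads and the other 4 libraries 2019 to 2587. The CM libraries differed from each other more than those of DM did, and both lay far below all others. S1pr1 rose by 2.99 in DM (SE 0.24, adjusted p 1.15e-04), a 7.94-fold change. In DM+Met it was 2.74 above CM (SE 0.24, adjusted p 1.49e-04).

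The chemokine receptor CCR7, which guides naive cells into lymph nodes, moved less. Ccr7 (chr11:99144196-99155077) lay at 7.70 and 7.75 in the CM libraries, 8.62 and 8.37 in those of DM, and 8.49 and 8.51 in those of DM+Met. The CM pair and the DM+Met pair were each tight, and the dialyzed media overlapped each other. Ccr7 rose by 0.77 in DM (SE 0.15, adjusted p 0.00813) and was 0.78 above CM in DM+Met (SE 0.15, adjusted p 0.00774). The call in DM was lost without either CM library (adjusted p 0.0762 and 0.0585), and that in DM+Met without either CM library (0.0765 and 0.0584) or either DM+Met library (0.114 and 0.121).

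Il7r encodes the α chain of the IL-7 receptor, which keeps naive and memory cells alive, and it was the 1 gene of the 9 that was lower in DM. Il7r (chr15:9505788-9530176) lay at 8.25 and 8.03 in the CM libraries, 7.37 and 7.47 in those of DM, and 7.87 and 7.70 in those of DM+Met. The media did not overlap, with DM+Met between the other two. Il7r fell by 0.72 in DM (SE 0.16, adjusted p 0.0145), with a 95% interval of -1.08 to -0.37. This call was lost whichever of the 6 libraries was left out, with adjusted p-values of 0.0522 to 0.108 and changes of -0.83 to -0.61. Between DM+Met and CM it was -0.36 (SE 0.16, adjusted p 0.160), which did not pass the threshold.

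Of the HMG-box factors, Lef1 changed at a high level and Tcf7 at a low one. Lef1 (chr3:131110471-131224356) lay at 7.46 and 7.71 in the CM libraries, 9.37 and 8.87 in those of DM, and 8.95 and 9.01 in those of DM+Met. It rose by 1.54 in DM (SE 0.18, adjusted p 9.16e-04) and was 1.40 above CM in DM+Met (SE 0.18, adjusted p 0.00113). The DM+Met libraries lay between the DM libraries, and all 4 were above both CM libraries.

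Tcf7 (chr11:52252371-52283014) had 145 and 123 reads in the CM libraries, 351 and 816 in those of DM, and 396 and 449 in those of DM+Met. Its log2 levels were 4.13 and 4.07 in the CM libraries, 5.20 and 6.19 in those of DM, and 5.09 and 5.28 in those of DM+Met. The DM libraries were further apart than for any other of the 9 genes, and DM library 2 was the high one. Tcf7 rose by 1.60 in DM (SE 0.35, adjusted p 0.0137), by 1.104 without DM library 2 and by 2.09 without DM library 1. The call was lost without DM library 2 (adjusted p 0.0638), without either CM library (0.0885 and 0.0837) and without either DM+Met library (0.0672 and 0.0681). In DM+Met it was 1.09 above CM (SE 0.35), with an adjusted p of 0.0624.

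The forkhead genes Foxo1 and Foxp1 differed from each other. Foxo1 (chr3:52268336-52353221) lay at 7.27 and 7.06 in the CM libraries, 7.38 and 7.10 in those of DM, and 7.43 and 7.31 in those of DM+Met. The CM and DM libraries overlapped. Its change in DM was 0.08 (SE 0.18, adjusted p 0.810), with a 95% interval of -0.32 to 0.47, and in DM+Met it was 0.20 against CM (SE 0.18, adjusted p 0.482), with an interval of -0.19 to 0.60. Foxp1 (chr6:98925338-99522721) lay at 8.24 and 8.28 in the CM libraries, 9.39 and 9.56 in those of DM, and 9.54 and 9.42 in those of DM+Met. Every library of the dialyzed media was above both CM libraries by more than the spread within a medium. Foxp1 rose by 1.22 in DM (SE 0.14, adjusted p 6.93e-04) and was 1.22 above CM in DM+Met (adjusted p 4.82e-04). The 95% intervals of the DM changes of Foxo1 and Foxp1 did not overlap, the latter being 0.91 to 1.52.

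Bach2 (chr4:32238804-32586108), a repressor of effector genes, lay at 7.33 and 7.07 in the CM libraries, 7.96 and 8.22 in those of DM, and 8.01 and 7.995 in those of DM+Met. Both dialyzed media were above CM in every library. Bach2 rose by 0.89 in DM (SE 0.17, adjusted p 0.00736) and was 0.80 above CM in DM+Met (SE 0.17, adjusted p 0.0112). The call in DM was lost without CM library 2 (0.755, adjusted p 0.0702) and without DM library 2 (0.75, adjusted p 0.0588). The call in DM+Met was lost without either CM library (adjusted p 0.0508 and 0.0902) or either DM+Met library (0.147 and 0.144). An antisense gene, Bach2os, shares exon bases with Bach2, and it had 2 to 84 reads per library against 1042 to 3364 of Bach2. Exons of Lef1 and Foxo1 also overlap antisense genes, and those of Foxp1 genes on its own strand, none of which has a row of its own. How the counting treated strand is not given in the sources used here.

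**Figure D2:**
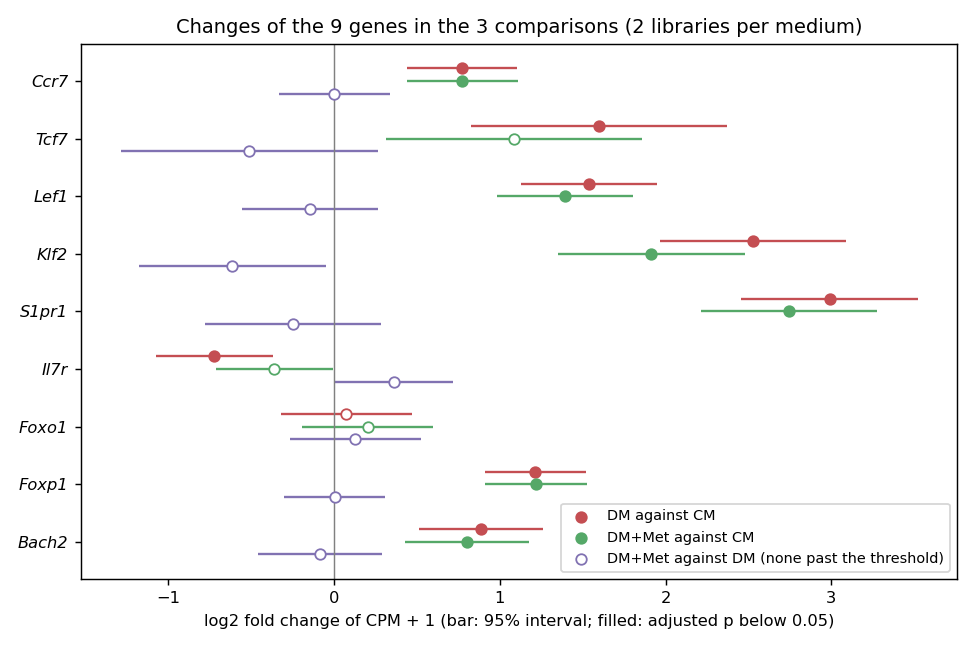
Log2 fold change of CPM + 1 (horizontal axis) of each gene between DM and CM, DM+Met and CM, and DM+Met and DM, with 95% intervals as bars and filled points for adjusted p below 0.05 in limma. The changes against CM run from -0.72 for Il7r to 2.99 for S1pr1 in DM, and none of the points for DM+Met against DM is filled.

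Adding methionine to DM moved none of the 9 genes past the threshold. In limma 0 of 9 were called higher or lower. An unadjusted p below 0.05 was found for 2 of 9, Klf2 and Il7r, and for 1238 of the 12770 tested genes. The count was also 0 in each of 17 alternatives, limma-voom on recovered reads included, against 0.0392% of all tested genes called higher and 0.0157% lower. The median change was -0.08, against 0.009 for all tested genes. Klf2 changed by -0.61 (SE 0.25, adjusted p 0.471) and S1pr1 by -0.25 (SE 0.24, adjusted p 0.805), and both had both DM+Met libraries below both DM libraries. Il7r changed by 0.36 (SE 0.16, adjusted p 0.505) and was the 1 gene with both above. These 2 and 1 genes compare with 20.6% of all tested genes below and 20.4% above. Each of the 3 changes runs opposite to that between DM and CM, but the DM libraries enter both comparisons.

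The intervals show what size of change could have been missed. The 95% intervals of the change with methionine were -1.18 to -0.05 for Klf2, 0.009 to 0.72 for Il7r and -1.29 to 0.26 for Tcf7, before adjustment over all genes. Ccr7 and Foxp1 changed by 0.003 and 0.004, with intervals of -0.33 to 0.34 and -0.30 to 0.31. For these genes a change in the size of that between DM and CM (0.77 and 1.22) lies outside the interval. The intervals depend on the TMM scaling. With library totals in its place both genes changed by 0.37, just outside these intervals, where the median of all tested genes was 0.34. Tcf7 changed by -0.51 (SE 0.35, adjusted p 0.693), and its interval was the widest of the 9.

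Between DM+Met and CM, 6 of the 9 genes were higher (Ccr7, Lef1, Klf2, S1pr1, Foxp1 and Bach2) and 0 lower, against 6.92% of all tested genes called higher and 8.36% lower. The median change was 1.09, against 0.06 for all tested genes. Both DM+Met libraries lay above both CM libraries for 8 genes and below for Il7r, against 32.2% and 28.7% of all tested genes. The CM libraries are the same as in the comparison of DM with CM. Without DM+Met library 2 only 2 genes, S1pr1 and Foxp1, were called, and 4 were called without DM+Met library 1 or without either CM library.

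**Figure D3:**
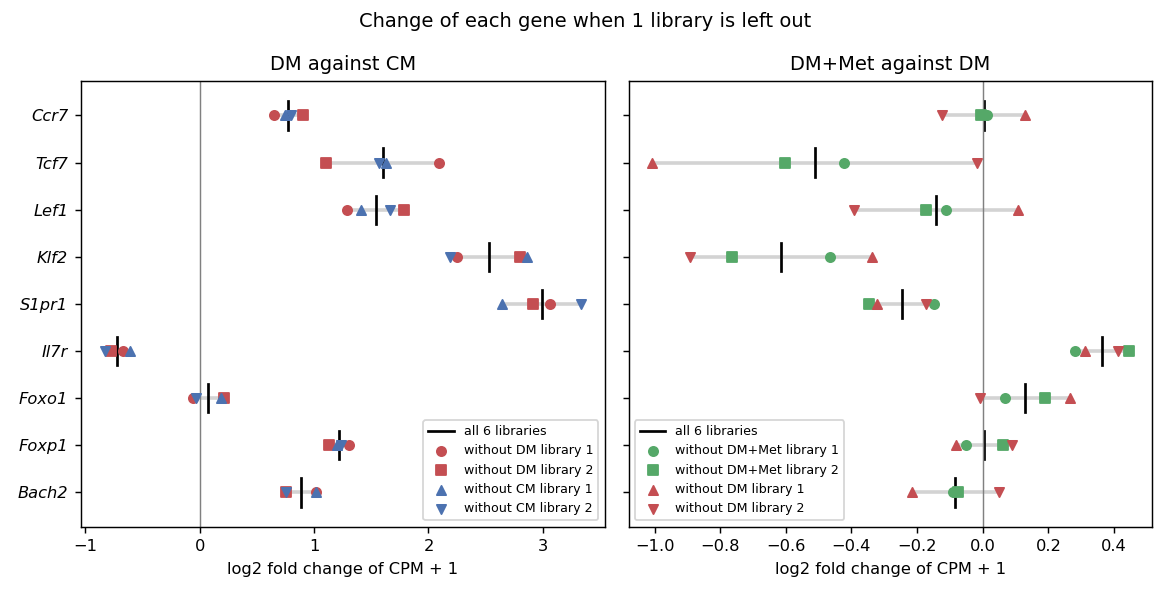
Log2 fold change of CPM + 1 (horizontal axis) of each gene in all 6 libraries (black bars) and with 1 library of the media compared left out (symbols). In DM against CM, 8 genes keep their sign whichever library is left out and Foxo1 crosses 0. In DM+Met against DM, Ccr7, Lef1, Foxo1, Foxp1 and Bach2 cross 0.

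Other genes of naive and quiescent T cells were also higher in DM. Of 24 tested genes, 14 were called higher in DM than in CM and 0 lower, against 7.80% and 9.07% of all tested genes. The median change was 0.81. The greatest increases were in Tob1, Klf3, Ccr9 and Runx1. Klf3, a repressor of the KLF family, rose by 2.86 (adjusted p 2.14e-04), and Runx1, a transcription factor of T cell development, by 1.57 (adjusted p 0.00192). Tob1, an antiproliferative factor, had 0 and 20 reads in the CM libraries, compared with 180 and 218 in those of DM, and rose by 3.39 (adjusted p 0.00706). The chemokine receptor gene Ccr9 had 2 and 0 reads in the CM libraries, compared with 40 and 91 in those of DM. In DM+Met against CM 13 of 24 were higher and 0 lower, against 6.92% and 8.36% of all tested genes. In DM+Met against DM 0 of 24 were called, against 0.0392% of all tested genes higher and 0.0157% lower. These lists were chosen with earlier results of these data known, and they overlap in content with the 9 genes.

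Genes of homing and egress were higher in part. Of 13 tested, 6 were higher in DM than in CM and 0 lower, against 7.80% and 9.07% of all tested genes. The median change was 0.45. Cd69, whose product binds S1PR1 and removes it from the cell surface, rose by 1.94 (SE 0.26, adjusted p 0.00165). The integrin genes Itgb1 and Itga4 rose by 1.77 and 1.22 (adjusted p 9.87e-04 and 0.0184).

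The list of 15 PI3K-AKT regulators of FOXO had 4 genes higher and 1 lower in DM than in CM. That was 26.7% and 6.67%, against 7.80% and 9.07% of all tested genes. Sgk1, a kinase that phosphorylates FOXO proteins, rose by 1.77 (adjusted p 0.0168), and Pik3r1 and Pik3ca, subunits of PI3K, by 1.302 and 1.02 (adjusted p 0.00403 and 0.00691). Pik3cd, the PI3K catalytic subunit δ of leukocytes, fell by 0.63 (adjusted p 0.0169). Of 14 other FOXO targets, 2 were called in each direction, or 14.3% against 7.80% higher and 9.07% lower among all tested genes, a difference of about 1 gene each way. Trib2 and Cdkn1b were higher (1.19 and 0.90) and Cdkn1a and Ccng2 lower (-1.55 and -1.42), with a median of 0.17.

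Partners of the other genes were also tested. Of all tested genes, 7.80% were called higher in DM than in CM and 9.07% lower. Of 12 TCF and LEF partners and Wnt targets, 3 were higher in DM and 0 lower. Apc, a brake on β-catenin, rose by 1.12 (adjusted p 0.00901) and Myb by 0.88 (adjusted p 0.0437), while Nkd1 was at 0 reads in CM and DM+Met and at 56 and 29 in DM. Of 12 genes of IL-7 receptor signaling, the feedback inhibitors Socs1, Socs2 and Cish rose by 1.37, 1.27 and 0.97 (adjusted p 0.00772, 8.69e-04 and 0.00355), and Stat5a fell by 0.88 (adjusted p 0.0174). Of 13 partners and repressed genes of BACH2, 1 (Id2, 0.66, adjusted p 0.0288) was higher, or 7.69%, and 4 lower, or 30.8%. Their median was -0.55. The AP-1 genes Jun and Batf fell by 1.61 and 1.02 (adjusted p 0.00355 and 0.0147), as did Maf by 0.88 and Junb by 0.56 (adjusted p 0.0121 and 0.0362). Prdm1, which encodes Blimp-1, changed by -1.16 in DM (adjusted p 0.0682) and was 1.76 lower in DM+Met than in CM on the log2 scale (-1.76, adjusted p 0.0147).

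Relatives of the 9 genes in the same families were mostly not called. Of 23 tested, 3 were higher in DM than in CM and 1 lower, with a median of 0.23. That was 13.0% and 4.35%, against 7.80% and 9.07% of all tested genes. The forkhead gene Foxo4 rose by 1.80 (adjusted p 0.00287), from 3.73 and 4.25 in CM to 5.92 and 5.67 in DM. Tcf7l2 had 4 and 8 reads in the CM libraries, compared with 82 and 132 in those of DM and rose by 2.66 (adjusted p 0.0147), and the chemokine receptor genes Ccr6 and Cxcr4 changed by 1.97 and -1.28 (adjusted p 0.0104 and 0.0444). Foxp3, the factor of regulatory T cells, was higher in DM+Met than in CM (2.68, adjusted p 0.00168) and not called in DM against CM (0.63, adjusted p 0.285).

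**Figure D4:**
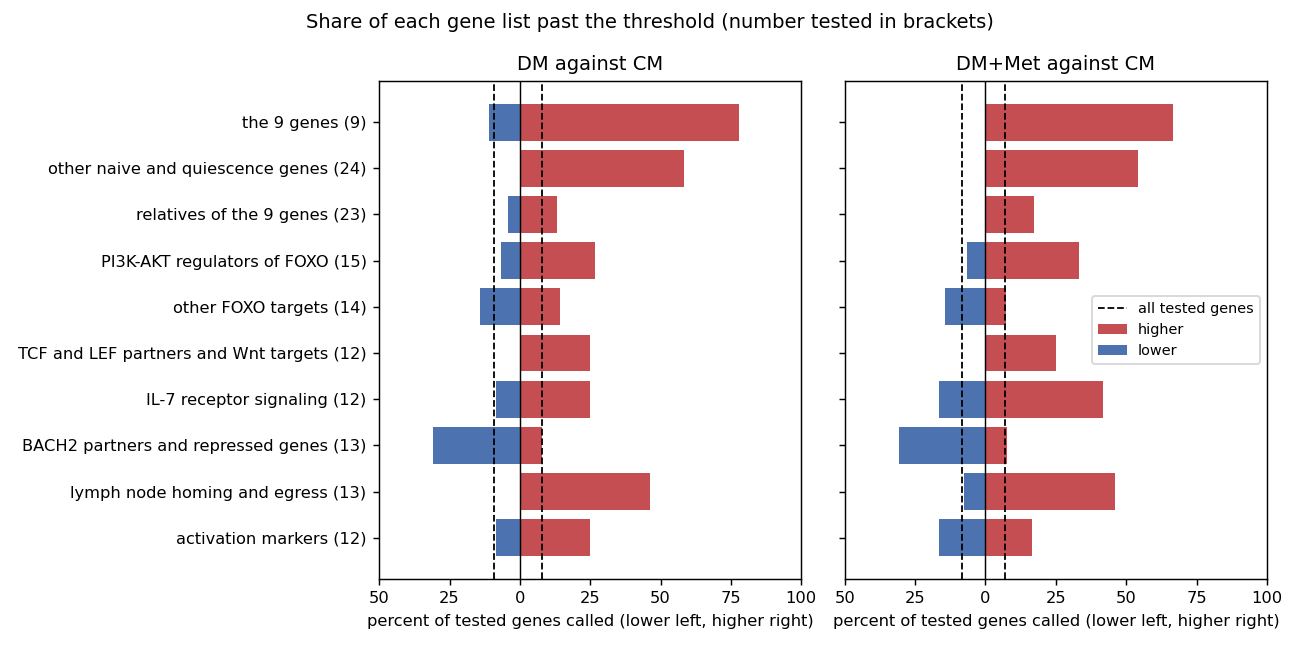
Share of the tested genes of each list (number in brackets) called higher (right, red) or lower (left, blue) when each dialyzed medium is set against CM, with dashed lines for all tested genes. The 9 genes and the 24 other naive and quiescence genes have the longest bars to the right, with 7 and 14 genes higher in DM.

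Activation markers moved in both directions in DM. Of 12, 25% were called higher than in CM and 8.33% lower, against 7.80% and 9.07% of all tested genes. Cd69, Nr4a1 and Irf4 rose (1.94, 0.90 and 0.82, adjusted p 0.00165, 0.0109 and 0.0135). Tfrc, the transferrin receptor of dividing cells, fell by 1.65 (adjusted p 6.93e-04), and the median of the 12 was -0.006. Cd44 and Il2ra, which mark activated cells, were among the markers not called. Both were picked after their values were seen and do not stand for the list. They changed by 0.07 and 0.10 (SE 0.19 and 0.14, adjusted p 0.846 and 0.645), with Il2ra at 9.86 to 10.41 in all 6 libraries.

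Several of the 9 genes are also expressed by B cells and other lymphocytes, so their markers are given. The summed level of 9 B cell markers was 238 and 245 CPM in the CM libraries, 164 and 161 in those of DM, and 156 and 191 in those of DM+Met. Only 1 of these 9, Pax5, was at 0 reads in every library, and the others had reads. Markers of CD8 T and NK cells summed to 119 and 134 CPM in the CM libraries, 44.1 and 45.7 in those of DM, and 62.5 and 59.1 in those of DM+Met. Myeloid markers summed to 194 and 163 CPM in the CM libraries, 267 and 163 in those of DM, and 252 and 273 in those of DM+Met. The number of marker genes called between DM and CM was 0 higher and 2 lower of 8 for B cells, 0 and 2 of 6 for CD8 T and NK cells, and 1 and 0 of 12 for myeloid cells, in which Lyz2 rose by 2.13 (adjusted p 0.0355). Of the 6 T cell markers, Cd5 and Cd3g were higher and Cd28 lower. Of all tested genes, 7.80% were called higher and 9.07% lower in this comparison. The part of these markers in the results of the 9 genes was not tested.

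Among 7500 tested rows outside the 9 genes, predicted genes left out, and with a mean of at least 10 CPM, the row most like each gene was found by the root mean square difference of the log2 levels over the 6 libraries, each centred on its own mean. For Klf2 it was Lrrc32, which encodes the TGF-β docking protein GARP (0.213), for S1pr1 Apol7b (0.138) and for Tcf7 Stk10 (0.120). For Ccr7 it was Dnajc13 (0.059), for Lef1 Gltscr1l (0.039), for Bach2 Stag1 (0.039) and for Foxp1 Tor1aip1 (0.069). For Il7r it was Por (0.060) and for Foxo1 Zmat3 (0.067). Within the 9 genes, Ccr7 and Bach2 were the closest pair (0.182). S1pr1 lay furthest from its nearest member, which was Klf2 (0.558), while the member nearest to Klf2 was Lef1 (0.490). These values describe 6 libraries and carry no test.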

How the data were processed

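RNA from CD4 T cells in 3 media was sequenced from 500 ng total RNA with the QuantSeq 3′ kit, which reads each transcript near its poly(A) end. The submitters' processing notes name Bowtie2, bedtools and the build mm10. Versions, annotation and strand treatment are not given in the sources used here. The authors deposited log2 of TMM-scaled CPM plus 1, to 3 decimals. Neither log base nor offset is stated, and both follow from equal steps of 1 read in the unlogged values. In each library at least 99.776% of values of up to 300 reads lay within 0.1 of a whole number. Floors of 3 reads cover counting error only, and the 95% intervals are those of the fit and rest on the spread between libraries.

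The deposited values of the 6 libraries entered 1 limma fit (limma 3.58.1, R 4.3.3, intensity trend, two-sided, Benjamini-Hochberg over 12770 rows, threshold 0.05), since log2 values are not counts. Tested rows had at least 2 libraries at 0.946 CPM (10 reads at the median effective depth) and 15 reads in total. The code was tested on simulated data. Genes were named by rule: all 9 genes, then up to 4 called genes of each list in each direction, and the row most like each gene. Cd4, Cd3e, Cd44, Il2ra, Pax5, Rn45s and Bach2os were named outside this rule. The 9 genes and the lists were chosen with earlier results of these data known. Of the list entries, 4 (Vsir, Tle5, Grk2, Ighm) matched no row and were not analysed here. Some listed genes are counted but not reported here by name. Positions are from GENCODE M21 (GRCm38, the build of mm10). Alternatives covered scaling, filters, pseudocounts of 0.1 and 5, limma-voom on recovered reads, the trend, the prior, the media in the fit, a replicate block and each library left out.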

Additional observations from a re-analysis of the deposited data

How the results depend on the processing

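Each result was recomputed under 17 alternatives. In DM against CM, Klf2, S1pr1, Lef1 and Foxp1 were called in all of them. The number of genes called (8) was 4 without an intensity trend, with 4 higher and 0 lower, and 4 to 7 with 1 library left out, with 4 to 7 higher and 0 lower. With only the 2 media in the limma fit it was 6, with 6 higher and 0 lower. Tcf7 (adjusted p 0.0683) and Il7r (adjusted p 0.0580) were then not called. In DM+Met against CM the number called (6) was 2 to 7 with 1 library left out. The cause was not tested.

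Library totals in place of TMM moved the median of all genes to 0.34 in DM+Met against DM and to 0.41 in DM+Met against CM. Over all genes, 51 were then called higher and 4 lower with methionine (5 and 2 with TMM), and in DM+Met against CM 76.3% of calls were higher (2060 and 641, against 884 and 1068 with TMM). With library totals in place of TMM the median of the 9 genes became 0.28 and 1.47. The change of Lef1 with methionine became 0.22, that of S1pr1 0.12 and that of Bach2 0.28, all below the median of all genes, and that of Il7r in DM+Met against CM 0.0347. The changes of Ccr7 and Foxp1 with methionine both became 0.37, above the median of all genes. Tcf7 (1.47, adjusted p 0.0127) and Foxo1 (0.60, adjusted p 0.0437) were then called in DM+Met against CM. Library totals without Rn45s gave a median of 1.37 in DM against CM, against 0.21 for all genes, and changes with methionine of -0.0326 for Ccr7 and -0.0316 for Foxp1. Of all calls, 59.6% were then higher in DM against CM (1320 and 895, against 996 and 1158 with TMM) and 57.4% in DM+Met against CM. A pseudocount of 5 gave a median of 0.93 in DM+Met against CM.

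With 1 library left out, the change of Foxo1 in DM against CM ranged from -0.0625 to 0.21. In DM+Met against DM the ranges were -0.124 to 0.13 for Ccr7, -0.392 to 0.107 for Lef1, -0.0085 to 0.27 for Foxo1, -0.0825 to 0.0905 for Foxp1 and -0.216 to 0.048 for Bach2. With the file number as a replicate block, 8, 0 and 6 genes were called in DM against CM, DM+Met against DM and DM+Met against CM, and no call changed. The differences between libraries 1 and 2 correlated between media at r = -0.025, 0.005 and -0.030 across genes, so no shared shift by file number was seen. This does not show whether libraries of the same number shared an animal or a culture. With 2 libraries per medium, changes well under the intervals given are not detectable.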
